A study of Homo sapiens with 22 samples.

Results

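The response to inhibition of the kinase GSK3 was followed in cells that express BRCA2 normally. The line was H1299, derived from a human non-small cell lung carcinoma. It held an shRNA against BRCA2 that doxycycline (DOX) switches on and that was left off (no DOX), and the cells were transfected with AllStars control siRNA. Libraries were chosen by their labels: 3 from cells given 250 nM LY2090314, a GSK3 inhibitor (GSK3i), for 24 h, and 2 from untreated cells, numbered 2 and 3. The study's figure legend describes the cells without inhibitor as treated with DMSO, and the word untreated here follows the labels. These 5 libraries are part of a set of 22 in which BRCA2 status, GSK3i and siRNA against β-catenin (siβ-catenin) were combined. The study made them to find the transcripts that follow accumulated β-catenin with and without BRCA2. BRCA2-deficient cells were the same line given 2 µg/mL DOX for 3 days, and a DOX-treated line without the shRNA was not among the libraries, so DOX and loss of BRCA2 cannot be told apart. All cultures come from 1 engineered line, and no replicate with number 1 of the untreated group was analysed here. The replicates were described as independent experiments.

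GSK3 is a kinase that is active in resting cells and is shut off by WNT and by insulin signalling. In the WNT pathway it phosphorylates β-catenin and so marks it for destruction, and β-catenin that escapes joins TCF/LEF factors on DNA to activate genes such as AXIN2. GSK3 has many substrates besides β-catenin, among them glycogen synthase, the translation factor eIF2B and the MYC protein, and growth signalling through AKT silences it. A transcript change under an inhibitor of GSK3 can therefore follow β-catenin or another substrate.

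The 5 libraries held 19.8 to 24 M counts, within the 18.9 to 29.3 M of the whole set. Levels below are normalised read counts (counts divided by DESeq2 size factors), and differences are log2 fold changes ± SE with Benjamini-Hochberg adjusted p from DESeq2. Calls needed an adjusted p under 0.05 together with a log2 fold change larger than 0.5 in either direction. Positions are on GRCh37. Of the markers of other cell types, 0 of 11 blood, endothelial and liver genes passed the filter on low counts and 6 of 16 epithelial and lung lineage genes did. Of these 6, 2 (KRT7 and KRT8) were called lower and 0 higher, with a median of -1.20, and their list summed to 12544.0 and 14364 normalised counts in the untreated libraries and to 7379 to 9906 with GSK3i. All 9 mesenchymal markers were tested, 4 (AXL, SPARC, TWIST1 and ZEB2) were called lower and 1 (SNAI2) higher, and their sum went from 79047 and 89164 to between 50896 and 52104. With 1 library left out, 2 to 3 of the 9 were called lower and 0 to 1 higher. TWIST1 lost its call whichever library was left out, and SNAI2 lost it without either untreated library. VIM, an intermediate filament of mesenchymal cells, had 32065 and 27764 normalised counts in the untreated libraries and 28502, 27661 and 25278 with GSK3i. The part of these shifts in the results below was not tested. In bulk RNA, fewer cells of a type and less RNA per cell cannot be told apart. None of the targeted genes was called. CTNNB1, which encodes β-catenin, had 7480.0 and 7451 normalised counts in the untreated libraries and 6515, 6070.1 and 6187 with GSK3i (log2 fold change -0.27 ± 0.12, adjusted p = 0.0598). GSK3B had 3325 and 3479.6 without and 2849, 3262 and 3624 with GSK3i (-0.08 ± 0.14, adjusted p = 0.692). BRCA2 had 848 and 695 without and 514, 812 and 992 with GSK3i (-0.01 ± 0.23, adjusted p = 0.978), against 71.4, 116 and 179 in untreated BRCA2-deficient cells. GSK3A was higher in every GSK3i library, at 4641, 4500.0 and 4006 against 3116 and 3136, but at 0.47 ± 0.13 (adjusted p = 0.00141) it was below the size needed for a call, and was called at 0.55 without GSK3i replicate 3.

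Before other libraries were set beside these 5, each of the 22 was placed by the 1620 genes that fell with GSK3i, had a mean of at least 100 normalised counts and did not overlap between the groups. A gene counted for GSK3i when its level in a library lay on the GSK3i side of the midpoint between the means of the 2 groups. The midpoints come from the 5 libraries themselves, so their own 0 to 0.494% without and 97.3 to 99.8% with GSK3i are no test. In BRCA2-deficient cells every library sat on the side its label gives. Those with GSK3i were at 54.4 to 77.9% and those without at 12.5 to 25.9%. In BRCA2-proficient cells with siβ-catenin, 1 library on each side went against its label. The library labelled siβ-catenin replicate 2 had 77.5% of the genes on the GSK3i side, and the library labelled GSK3i + siβ-catenin replicate 2 had 7.16%. Comparisons that use these libraries are given with and without them, and no direction is drawn from them. The other 3 libraries of that arm were at 31% without and at 81.2 and 81.5% with GSK3i.

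**Figure D1:**
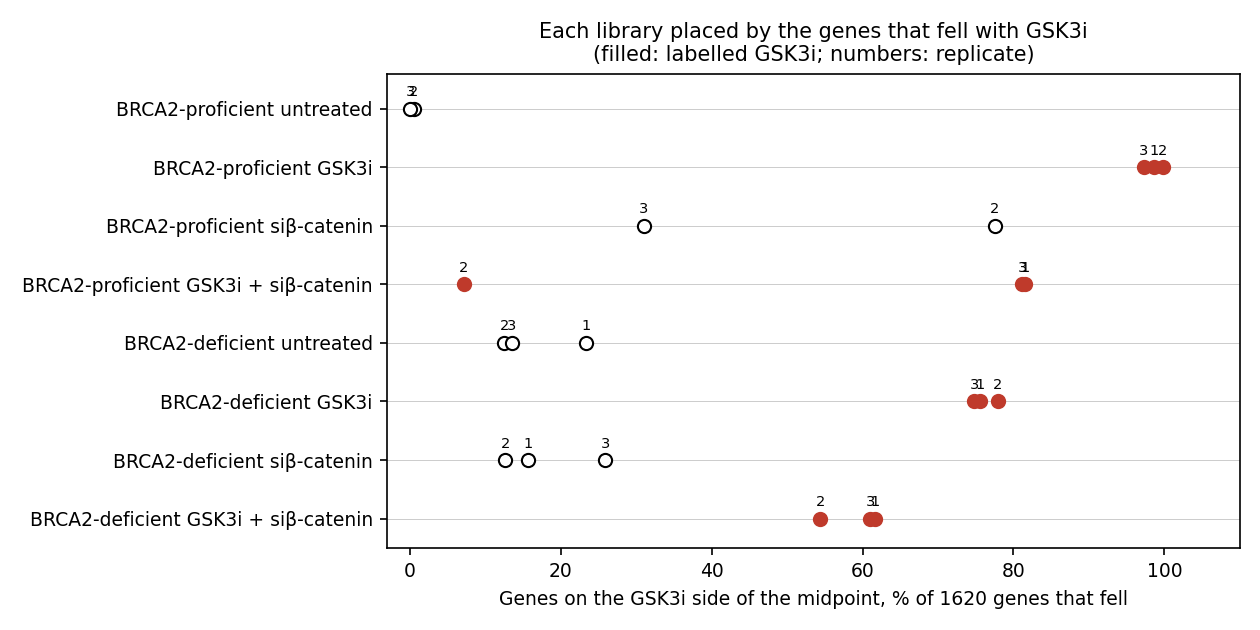
Each point is 1 of the 22 libraries, by group (rows) and by the percentage of 1620 genes that fell with GSK3i in BRCA2-proficient cells whose level lay on the GSK3i side of the midpoint (x axis). Filled points carry a GSK3i label and the number is the replicate; the libraries labelled replicate 2 in both BRCA2-proficient siβ-catenin groups, at 77.5% and 7.16%, are the only ones on the side opposite to their label.

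The first question was how far the transcriptome moved. Of 16771 genes tested, 4372 (26.1%) were called with GSK3i, 1983 higher (11.8%) and 2389 lower (14.2%), and the median change over all genes tested was -0.00. The decreases were larger than the increases. Beyond 1 on the log2 scale there were 427 genes higher and 1238 lower, beyond 2 there were 47 and 302, and beyond 3 there were 16 and 76. Among genes with a mean of at least 100 normalised counts the counts were 313 and 571 beyond 1, 13 and 67 beyond 2, and 1 and 12 beyond 3. In 4346 of the 4372 called genes (99.4%) the 5 libraries fell into groups that did not overlap, against 61.4% of all genes tested. Lack of overlap was a condition for naming the largest changes below, of all genes and of each list. It is therefore no further support for those genes. With only 2 untreated libraries, the count of lower genes rested on both of them: it was 1469 without replicate 2 and 1310 without replicate 3, with 1680 and 1515 higher. Protein-coding genes were called higher in 13.4% and lower in 15.7%. Of 1814 long non-coding RNAs tested, 5.79% were called higher and 12.2% lower (median -0.24), and of 781 processed pseudogenes, whose reads are easily shared with their parent genes, 6.02% and 1.92% (median 0.24).

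The genes were then grouped in 68 lists of pathways and complexes and 43 families defined by gene symbol. The lists with the largest share of risers were ribosome biogenesis, aminoacyl-tRNA synthetases, ATF4 and one-carbon genes, mitochondrial ribosomal proteins and heat-shock proteins, each with more than 50% of tested members higher. The lists with the largest share of fallers were the YPEL family, interferon-stimulated genes, collagens, insulin and FOXO target genes and receptor tyrosine kinases.

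**Figure D2:**
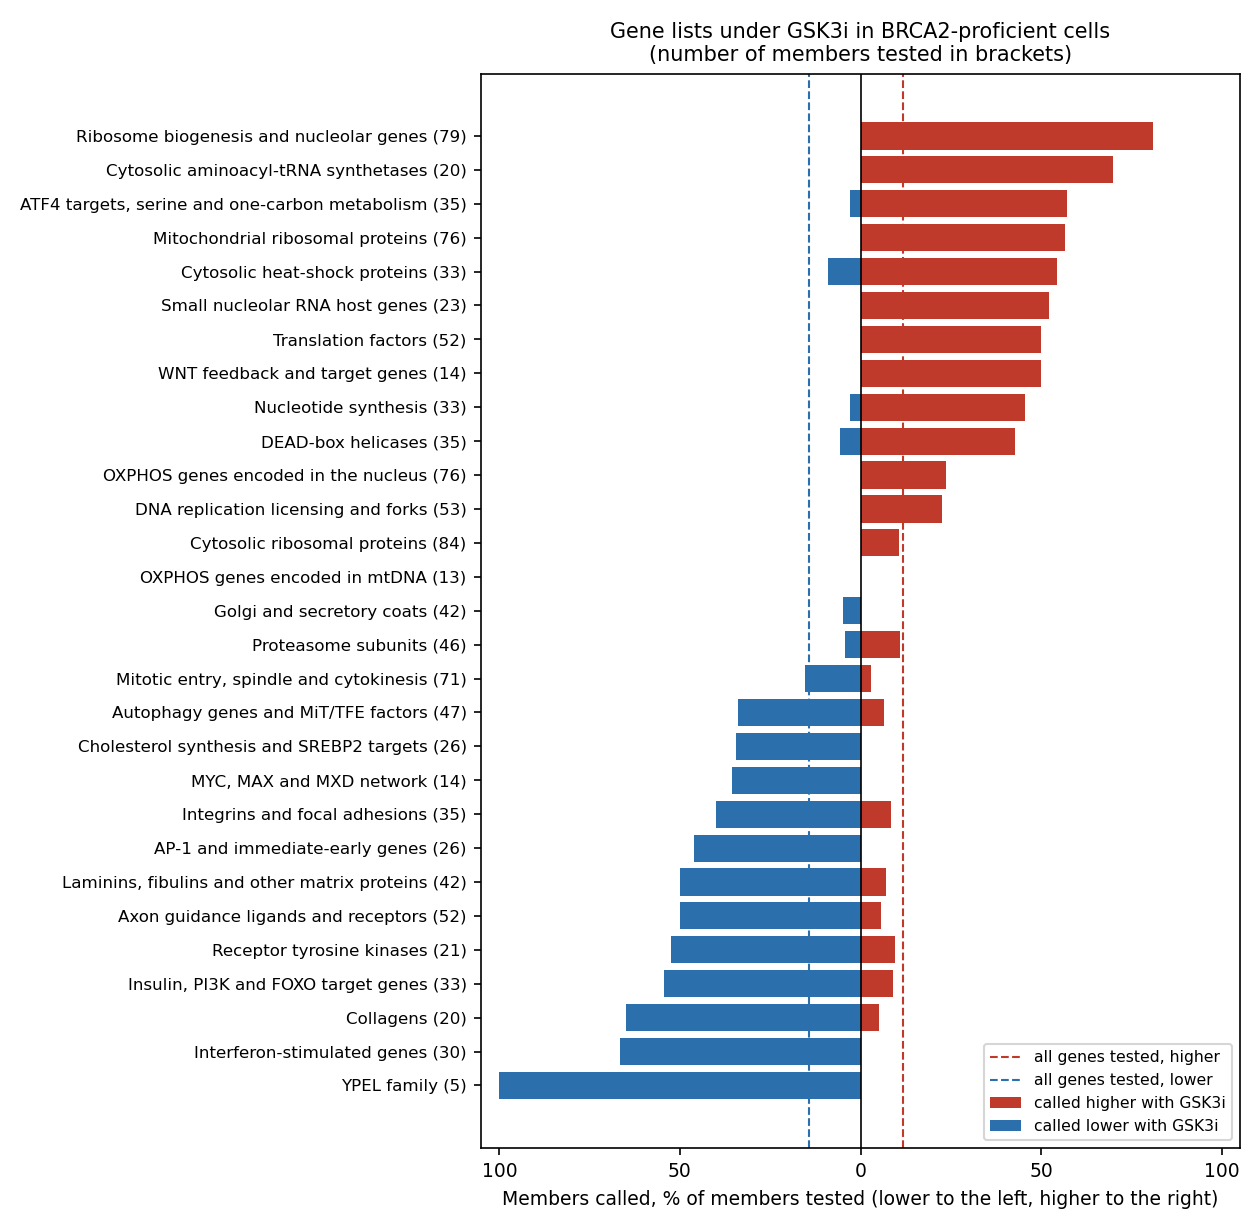
Bars give, for 29 of the lists and families, the percentage of tested members called lower (blue, left) and higher (red, right) with GSK3i in BRCA2-proficient cells, 3 libraries against 2. The dashed lines mark the share of all genes tested, 14.2% lower and 11.8% higher; 81% of the ribosome biogenesis genes rose, and 100% of the 5 YPEL genes fell.

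Known targets of WNT signalling were among the genes that rose. Of 14 tested WNT feedback and target genes, 7 were called higher and 0 lower (median 0.74). The list is short, so its count does not measure how many of all increases are WNT targets. AXIN2 (ENSG00000168646, chromosome 17, 63524681 to 63557766), a scaffold of the complex that destroys β-catenin, had 82.4 and 72.3 normalised counts in the untreated libraries and 1153, 1145 and 1027 with GSK3i, a 14.2-fold increase. LEF1, a DNA-binding partner of β-catenin, went from 65 and 49.5 to 406, 368 and 453 (2.83 ± 0.24). Outside that list, the large increases at a mean of at least 100 normalised counts included DCLK1, a microtubule-binding kinase. DCLK1 (ENSG00000133083, chromosome 13, 36342789 to 36705519) had 45.3 and 45.7 normalised counts without and 354, 307 and 289.8 with GSK3i (2.79 ± 0.25). MYC, often named as a WNT target, had 3969 and 5700.0 without and 5694, 4121 and 4375 with GSK3i, overlapping ranges and a log2 fold change of -0.05 ± 0.18 (adjusted p = 0.872).

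Among the lists, the genes that build ribosomes had the largest share of members called higher. Ribosome biogenesis takes place in the nucleolus, where RNA polymerase I makes the ribosomal RNA precursor and many factors cut, modify and fold it. Of 79 such genes, all tested, 64 (81%) were called higher and 0 lower, with a median of 0.88 and a range from -0.51 to 1.81. The count lay between 64 and 67 when any library was left out. In the stricter test against a change of 0.5, 40 of them still passed.

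NOP16 (ENSG00000048162, chromosome 5, 175810949 to 175815928), a nucleolar protein of large-subunit assembly, had 1017 and 1080.2 normalised counts in the untreated libraries and 4040.2, 3609 and 3246 with GSK3i, a change of 1.78 ± 0.14 (adjusted p = 6.65e-33). RRS1, an assembly factor of the large subunit, had 1632 and 1822 without and 7291, 5719.7 and 5358 with GSK3i (1.81 ± 0.16). NOP2 (ENSG00000111641, chromosome 12, 6666029 to 6677857), a methyltransferase of the large ribosomal RNA, had 2689.9 and 3172 without and 8892, 7859 and 7846 with GSK3i (1.47 ± 0.13). In each of these genes all GSK3i libraries were far above both untreated ones. POLR1B (ENSG00000125630, chromosome 2, 113299492 to 113337395), a core subunit of RNA polymerase I, rose from 926 and 1000.3 to 1965, 2033 and 2299 (1.11 ± 0.14). WDR43 (ENSG00000163811, chromosome 2, 29117533 to 29171085), a factor of the small-subunit processome, rose from 2538 and 2916 to 5517, 5788 and 6585 (1.11 ± 0.14). DDX21 (ENSG00000165732, chromosome 10, 70715891 to 70744824), a nucleolar RNA helicase, rose from 5166 and 5764 to 11128, 13473 and 14855 (1.25 ± 0.15). Subunits of the polymerase, factors of both ribosomal subunits and helicases were thus all among the genes that rose. The DEAD-box helicase family to which DDX21 belongs had 15 of 35 tested members higher and 2 lower.

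The promoters of these genes were examined because the factors MYC and MAX are known to bind the E-box CACGTG at genes of ribosome biogenesis. RefSeq promoters (GRCh38.p14, 250 bases before to 50 after the start) were matched by symbol for 10816 of 13080 tested protein-coding genes (82.7%) and for 68 of the 79 list members. The E-box, a palindrome that reads the same on both strands, stood in 21 of the 68 promoters (30.9%), against 1091 of all 10816 (10.1%). In 19 of the 21 it lay between 15 bases before and 50 after the start, which is 27.9% of the 68 promoters, against 224 of all (2.07%). That window was set after the positions were seen. Translation factors held the E-box in 11 of 43 promoters (25.6%), in 0 of them within the window. High shares were not limited to lists that rose. The list of MYC, MAX and MXD genes held it in 5 of 12 promoters (41.7%), with 0 of 14 members called higher. SRSF and HNRNP splicing factors held it in 9 of 35 (25.7%), with 2 of 38 higher. The aminoacyl-tRNA synthetases, with 14 of 20 higher, held it in 1 of 16 (6.25%). A part of the E-box in the increases was not tested. The promoters of NOP2 and WDR43 are shown because they carry the E-box just after the start, with its first base at positions 36 and 4 of the transcript, in capitals. A match is a run of letters and does not say that a factor was bound. The first is chr12:6568242-6568541 on the minus strand and the other chr2:28894417-28894716 on the plus strand.
NOP2: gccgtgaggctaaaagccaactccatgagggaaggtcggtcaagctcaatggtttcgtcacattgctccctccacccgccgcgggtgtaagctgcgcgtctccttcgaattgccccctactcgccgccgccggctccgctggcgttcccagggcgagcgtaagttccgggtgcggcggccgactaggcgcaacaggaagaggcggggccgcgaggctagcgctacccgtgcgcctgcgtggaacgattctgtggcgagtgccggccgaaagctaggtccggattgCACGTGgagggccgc
WDR43: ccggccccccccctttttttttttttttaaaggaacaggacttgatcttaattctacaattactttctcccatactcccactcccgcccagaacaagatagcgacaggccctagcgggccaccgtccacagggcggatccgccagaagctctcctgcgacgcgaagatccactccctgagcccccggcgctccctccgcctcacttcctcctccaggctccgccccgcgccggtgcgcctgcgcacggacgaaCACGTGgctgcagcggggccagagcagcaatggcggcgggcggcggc

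Other parts of the protein synthesis machinery rose with smaller changes. Of 20 cytosolic aminoacyl-tRNA synthetases, the enzymes that charge tRNAs, 14 were called higher and 0 lower (median 0.75). FARSA (ENSG00000179115, chromosome 19, 13033293 to 13044851), a subunit of the phenylalanine enzyme, had 2719 and 2807 normalised counts without and 6042, 5806 and 4948 with GSK3i (2.01-fold higher, adjusted p = 7.37e-12). QARS1, the glutamine enzyme, was among the 6 that were not called, with 5923 and 5975 against 6579, 6629.9 and 5827 (0.08 ± 0.13). Of 52 translation factors, 26 were higher and 0 lower (median 0.49). EIF2S1 (ENSG00000134001, chromosome 14, 67827045 to 67853233), the subunit of eIF2 whose phosphorylation slows translation, went from 4784 and 4688 to 9812, 9157 and 10139 (1.02 ± 0.12). All 20 synthetases were above 0 and 6 of them were not called, and of the translation factors 26 were not called. In the test against 0.5, 2 synthetases and 5 translation factors passed. Of 76 mitochondrial ribosomal proteins, 43 were called higher (median 0.58). MRPS30 (ENSG00000112996, chromosome 5, 44809049 to 44820530) had 1585 and 1659 without and 3775, 3686 and 3466 with GSK3i (1.15 ± 0.13). MRPS12 had 2544 and 2082 without and 6328, 5783 and 4237 with GSK3i (1.22 ± 0.18). The mitochondrial count ran from 29 to 50 as libraries were left out, lowest without untreated replicate 3, and was 5 in the test against 0.5. Of 84 cytosolic ribosomal proteins, 9 were called (10.7%, background 11.8%), with 82 above 0 and a median of 0.34. That count rested on single libraries, with 19 without untreated replicate 2, 5 without replicate 3 and up to 23 with another library left out. Small nucleolar RNA host genes, whose introns carry the guides for ribosomal RNA modification, were higher in 12 of 23 and lower in 0, but higher in 6 without untreated replicate 2 and 8 without replicate 3. SNHG15 (ENSG00000232956, chromosome 7, 45022618 to 45026560) had 398 and 534 without and 1371, 1000.1 and 1114 with GSK3i (1.30 ± 0.19).

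Genes for amino acid supply and for nucleotide and one-carbon metabolism also rose. The transcription factor ATF4 activates genes for amino acid uptake and synthesis, and its targets with the serine and one-carbon pathway gave 20 of 35 genes higher and 1 lower (median 0.70). The list's count was 15 without untreated replicate 2 and 25 without replicate 3, and 4 in the test against 0.5. CHAC1 (ENSG00000128965, chromosome 15, 41245160 to 41248710), which degrades glutathione, had 446 and 845 normalised counts in untreated replicates 2 and 3 and 1658, 1541 and 1899 with GSK3i (1.38 ± 0.22, adjusted p = 4.71e-09), and was not called in one model over all groups (adjusted p = 0.114). SLC7A5 (ENSG00000103257, chromosome 16, 87863629 to 87903113), a transporter of large neutral amino acids, had 3890.3 and 5466 without and 9392, 14280.5 and 11699.8 with GSK3i (1.32 ± 0.19). PSAT1 (ENSG00000135069, chromosome 9, 80912041 to 80945009), an enzyme of serine synthesis, had 4693 and 6042 without and 8819, 11909 and 10844 with GSK3i (0.96 ± 0.16). In all of these genes the groups did not overlap, and untreated replicate 2 was the lowest library. The 1 member called lower was SLC38A2, a transporter of small neutral amino acids, at 31598 and 33343 against 17743, 17869 and 19726 (-0.83 ± 0.12). DDIT3, a stress-induced partner of ATF4, had 319 and 1074 without and 1092, 702 and 1020.5 with GSK3i, overlapping ranges with no call (0.41 ± 0.66), and was called higher, at 1.54, without untreated replicate 3.

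Of 33 genes of nucleotide synthesis, 15 were higher and 1 lower (median 0.44). In the test against 0.5, 1 was higher and 1 lower. CAD (ENSG00000084774, chromosome 2, 27440237 to 27466811), the enzyme that begins pyrimidine synthesis, went from 6353 and 6442 to 11174, 12875 and 12044 normalised counts (0.90 ± 0.12, adjusted p = 2.04e-11). UPP1, which splits uridine, went from 738 and 1069.8 to 1840.2, 2004 and 1583 (0.98 ± 0.18), and was not called in one model over all groups (adjusted p = 0.0584) or with the replicate block (adjusted p = 0.0704). Cytosolic heat-shock proteins were higher in 18 of 33 and lower in 3, and in the test against 0.5 higher in 3 and lower in 0. DNAJB1, a co-chaperone of HSP70, rose from 5176 and 5866 to 12795, 12583 and 12372 (1.17 ± 0.12). HSPA1A, a stress-induced HSP70 gene with a near-identical copy whose reads may be split, went the other way, with 1069 and 1575 against 778, 613 and 999 (-0.75 ± 0.21), and was not called without untreated replicate 3 (-0.44) or without GSK3i replicate 1 (-0.72). Nuclear genes of oxidative phosphorylation gave 18 of 76 higher (23.7%) and 0 lower, but 10 higher without untreated replicate 3, 22 without replicate 2 and up to 32 without 1 of the others. The 13 genes of mtDNA ranged from -0.21 to 0.17. DNA replication genes gave 12 of 53 higher, a count that fell to 6 without untreated replicate 3 and rose to 23 without replicate 2. Of 46 proteasome subunits, 5 were higher and 2 lower, with 11 higher without untreated replicate 2 and 3 without replicate 3. The proteasome shares were 10.9% higher and 4.35% lower, against 11.8% and 14.2% of all genes. Of 42 genes of Golgi and secretory coats, 0 were higher and 2 lower, below the background in both directions.

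**Figure D3:**
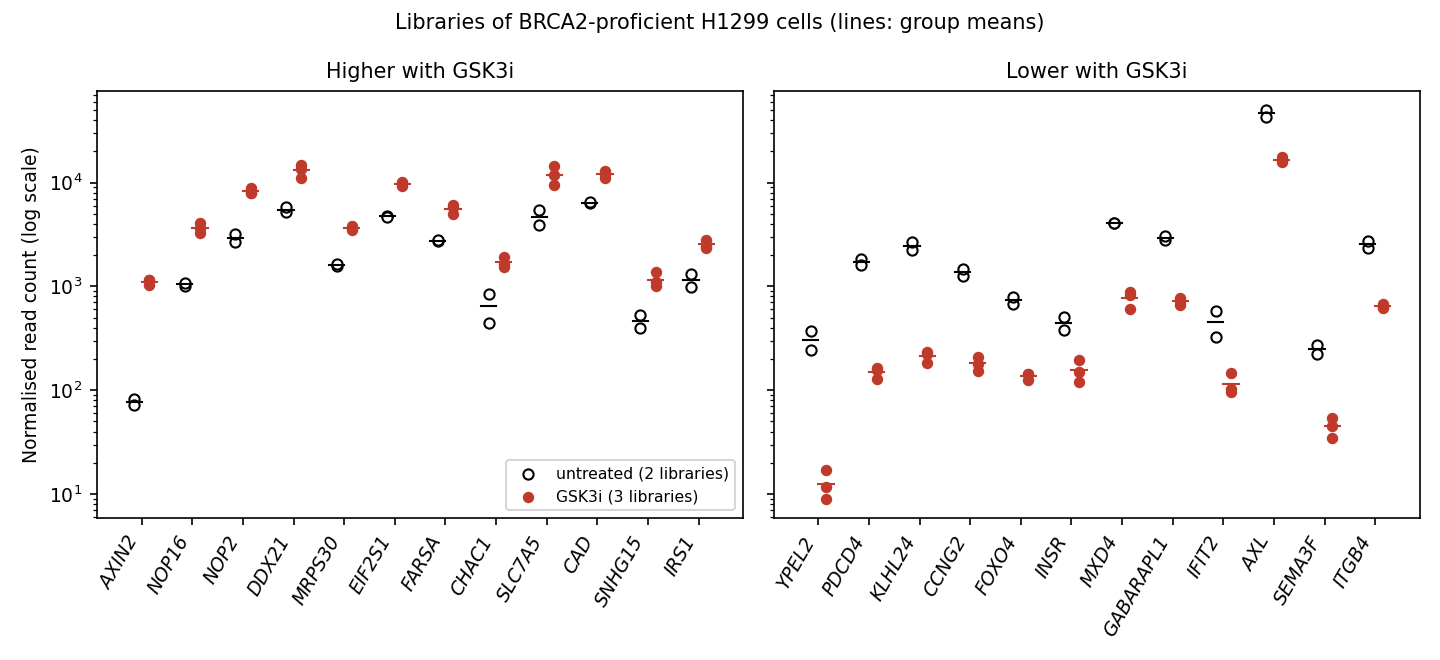
Normalised read counts (log scale) of 12 genes that rose and 12 that fell with GSK3i in BRCA2-proficient cells. Open points are the 2 untreated libraries, filled points the 3 GSK3i libraries, and lines the group means. In each of the 24 genes the groups do not overlap, which was a condition for naming the largest changes. Levels run from YPEL2, with 9.02 to 17.1 counts with GSK3i, to AXL, with 42997 and 50004 without it.

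The single genes with the largest decreases came from several lists. The genes with the largest decrease at a mean of at least 100 normalised counts were YPEL2, BMF, ABTB1, FOS, KLHL24 and PDCD4. The YPEL family encodes small zinc-binding proteins found across animals and plants, whose biochemical role is not settled. All 5 human members were tested and all 5 were called lower. YPEL2 (ENSG00000175155, chromosome 17, 57409016 to 57479090) had 245 and 368 normalised counts in the untreated libraries and 11.7, 17.1 and 9.02 with GSK3i, 24.7-fold lower (-4.62 ± 0.37, adjusted p = 1.37e-33). YPEL3 (ENSG00000090238, chromosome 16, 30103635 to 30108236) went from 378 and 488 to 170.0, 174 and 112 (-1.53 ± 0.23). YPEL5 (ENSG00000119801, chromosome 2, 30369807 to 30383399) went from 1938 and 2176 to 982, 915 and 757 (-1.23 ± 0.16). The decrease was deepest in YPEL2 of these 3 and no library of one group reached the other. KLHL24 (ENSG00000114796, chromosome 3, 183353398 to 183402307), an adaptor of a ubiquitin ligase, was an abundant gene that fell 11.7-fold, from 2249.9 and 2657 to 222, 232 and 183 (-3.55 ± 0.17). PDCD4 (ENSG00000150593, chromosome 10, 112631553 to 112659764), an inhibitor of the translation helicase eIF4A, fell from 1847 and 1597 to 129, 157 and 164 (-3.54 ± 0.17). BMF, which encodes a BCL2-family protein that promotes cell death, had 467 and 718 without and 67.5, 53.5 and 19.2 with GSK3i, a wider spread than the others (-3.68 ± 0.66). CREBRF (ENSG00000164463, chromosome 5, 172483355 to 172566287), a regulator of the cell's response to low nutrients, fell from 840.5 and 1514 to 100.2, 104 and 149 (-3.34 ± 0.25), 10.1-fold lower. SMIM14, a small membrane protein of the endoplasmic reticulum, fell from 2262 and 1856 to 247, 238 and 253 (-3.08 ± 0.16). In each of these genes the highest GSK3i library was below the lowest untreated one, which was a condition for naming the largest changes.

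FOXO factors are held out of the nucleus by AKT when insulin or growth factors are present, and they activate genes of arrest, of nutrient sensing and of insulin sensitivity. In the list of insulin, PI3K and FOXO target genes, 18 of 33 tested members were called lower and 3 higher (median -0.88). The count of 18 was the same with any library left out, and 15 passed the test against 0.5. Of the decreases, 4 are the YPEL genes that this list also holds. CCNG2 (ENSG00000138764, chromosome 4, 78078360 to 78354542), an unconventional cyclin linked to arrest, had 1259.6 and 1465 normalised counts without and 177, 155 and 211 with GSK3i (-2.93 ± 0.18, adjusted p = 1.54e-57). INSR (ENSG00000171105, chromosome 19, 7112266 to 7294425), the insulin receptor, had 376 and 502 without and 151, 121 and 197 with GSK3i (-1.51 ± 0.24). KLF9, a zinc-finger repressor, had 554 and 771 without and 245, 189 and 250.3 with GSK3i (-1.56 ± 0.21). All of these were lower in every GSK3i library than in either untreated one. IRS1 (ENSG00000169047, chromosome 2, 227596028 to 227664536), the adaptor that carries the signal from the insulin receptor, moved the other way, from 993 and 1303 to 2364, 2444 and 2812 (1.13 ± 0.16), and so did TRIB2, a pseudokinase (0.89 ± 0.18).

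The FOXO genes themselves differed. FOXO4 (ENSG00000184481, chromosome X, 70315701 to 70323382) fell from 679 and 796 to 143, 126 and 142 (-2.44 ± 0.19, adjusted p = 4.12e-36). FOXO1 (ENSG00000150907, chromosome 13, 41129804 to 41240778) fell from 302 and 338 to 104, 124 and 136 (-1.41 ± 0.22). FOXO3 had 2113 and 3187 without and 3436, 3489.6 and 4208 with GSK3i and was not called (0.47 ± 0.18), but was called higher without untreated replicate 3 (0.80) and without GSK3i replicate 1 (0.53). The letters GTAAACA, the core bound by forkhead factors, were searched on both strands. They stood in 4 of 28 promoters of this list found in RefSeq (14.3%) against 234 of 10816 (2.16%). Other motifs and the other lists were searched as well. The same letters stood in 2 of 18 promoters of DNA methylation genes (11.1%) and 2 of 21 of AP-1 and immediate-early genes (9.52%). Receptor tyrosine kinases had them in 0 of 18. The list was written in part from known FOXO targets, with earlier results of these data known, so its share is no test of FOXO. Members that were called lower and members that were not are both in that share. A part of these letters in the decreases was not tested, and a match does not say that a factor was bound. The promoters of FOXO4 and YPEL3 are printed since they hold GTAAACA at the start of the transcript, from positions 24 and 1, in capitals. The FOXO4 window is chrX:71095601-71095900 on the plus strand and the YPEL3 window chr16:30096164-30096463 on the minus strand of GRCh38.p14.
FOXO4: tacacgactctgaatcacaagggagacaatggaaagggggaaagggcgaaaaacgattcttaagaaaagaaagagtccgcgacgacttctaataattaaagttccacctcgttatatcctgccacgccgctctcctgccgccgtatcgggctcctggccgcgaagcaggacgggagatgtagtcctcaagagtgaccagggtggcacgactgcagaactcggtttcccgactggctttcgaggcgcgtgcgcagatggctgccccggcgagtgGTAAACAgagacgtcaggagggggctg
YPEL3: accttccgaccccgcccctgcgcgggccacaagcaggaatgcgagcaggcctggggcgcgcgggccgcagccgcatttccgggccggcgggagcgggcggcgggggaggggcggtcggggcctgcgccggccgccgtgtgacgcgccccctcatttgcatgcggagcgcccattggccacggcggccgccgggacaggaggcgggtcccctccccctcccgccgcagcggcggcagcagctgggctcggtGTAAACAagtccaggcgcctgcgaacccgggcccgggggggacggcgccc

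Transcripts of several brakes on the cell cycle and on MYC fell. In the network of MYC, its partner MAX and the MXD proteins that compete with MYC for MAX, 5 of 14 tested genes were lower (MXD3, MXD4, MXI1, MNT and MLXIPL) and 0 higher. MXD4 (ENSG00000123933, chromosome 4, 2249159 to 2263836) fell from 4059 and 4075 to 891, 819 and 607 normalised counts (-2.41 ± 0.17, adjusted p = 2.68e-44). MXI1 (ENSG00000119950, chromosome 10, 111967363 to 112047123) fell from 744 and 988 to 359, 379 and 384 (-1.23 ± 0.18). The ranges of MYC overlapped. Among G1 cyclins, CDKs and CDK inhibitors, 7 of 29 were higher and 7 lower. Of the 6 tested CDK inhibitors in it, 5 were called lower and CDKN2B was not. CDKN1A (ENSG00000124762, chromosome 6, 36644237 to 36655114), which encodes p21, had 979.8 and 1614 without and 678, 655 and 609 with GSK3i (-1.02 ± 0.20, adjusted p = 3.09e-06). CDKN1B (p27) had 2308 and 2331 without and 1144, 1212 and 1352 with GSK3i (-0.92 ± 0.14). CDKN2C (p18) had 1629 and 1172 without and 635, 609 and 563 with GSK3i (-1.23 ± 0.17). Untreated replicate 3 was high for CDKN1A and replicate 2 for CDKN2C, and the groups did not overlap in any of the 3. RBL2, a repressor of the retinoblastoma family that acts in quiescent cells, had 1522 and 1475 without and 540.4, 666 and 760.0 with GSK3i (-1.21 ± 0.17). CCND1, cyclin D1, rose from 5209 and 5231 to 9649, 8927 and 8177 (0.76 ± 0.13). E2F4 rose from 1611 and 1486 to 2803, 2724 and 2607 (0.79 ± 0.13). Genes of mitosis showed 2 of 71 higher and 11 lower (15.5%, against 14.2% of all genes), with 5 lower without untreated replicate 2. The list of growth arrest and stress genes often induced by DNA damage had 7 of 27 lower (25.9%) and 4 higher (14.8%). Of all genes, 14.2% were lower and 11.8% higher, and with the replicate block the list had 4 lower.

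Autophagy genes were lower more often than higher. Of 47 autophagy genes and MiT/TFE factors tested, 16 were lower and 3 higher (median -0.22). ULK1 (ENSG00000177169, chromosome 12, 132379167 to 132407695), the kinase that starts autophagy, had 1667 and 1952 normalised counts in the untreated libraries and 523, 497 and 407 with GSK3i (-1.94 ± 0.16, adjusted p = 3.42e-30). GABARAPL1 (ENSG00000139112, chromosome 12, 10365057 to 10375727), a protein attached to autophagosome membranes, had 2826 and 3026 without and 772, 724 and 668 with GSK3i (-2.04 ± 0.14). SQSTM1, a cargo receptor, had 18319 and 23094 without and 23304, 22713 and 19991 with GSK3i (0.07 ± 0.14). TFEB, a master activator of lysosomal genes, had 82.4 and 112 without and 127, 109 and 123 with GSK3i (0.28 ± 0.28). In SQSTM1 and TFEB the groups overlapped. The lysosomal hydrolases and membrane proteins were called lower in 10 of 56 and higher in 7, near the background in both directions.

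Interferon-stimulated genes, an antiviral programme also expressed at a low level without infection, were lower in 20 of 30 tested and higher in 0 (median -0.78). The count was 17 without untreated replicate 2 and 15 without replicate 3, and 9 in the test against 0.5. IFIT2 (ENSG00000119922, chromosome 10, 91043451 to 91069028), a binder of viral RNA, had 327 and 575 normalised counts without and 95.5, 102 and 146 with GSK3i (-2.00 ± 0.27, adjusted p = 5.16e-12). IFIT1 (ENSG00000185745, chromosome 10, 91152303 to 91166244) had 259 and 329 without and 107, 101 and 92.5 with GSK3i (-1.57 ± 0.23). DDX60 (ENSG00000137628, chromosome 4, 169137442 to 169240034), an antiviral helicase, had 413 and 516 without and 104, 146 and 185 with GSK3i (-1.70 ± 0.24). In all 3 the groups did not overlap.

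Receptor tyrosine kinases, axon guidance genes and matrix genes were lower in shares of 50% or more. Among receptor tyrosine kinases, which receive growth factors, 11 of 21 tested were lower and 2 higher (median -0.89). AXL (ENSG00000167601, chromosome 19, 41725128 to 41767671), a receptor characteristic of mesenchymal lung cancer lines, was among the most abundant genes that fell, with 50004 and 42997 normalised counts in the untreated libraries and 16593, 15756 and 17621 with GSK3i (-1.50 ± 0.13, adjusted p = 9.13e-30). TYRO3, its close relative, rose from 1269 and 1340.0 to 1987, 2051 and 1969.9 (0.60 ± 0.13). EGFR had 2892 and 3634 without and 2695, 3198 and 3608 with GSK3i, overlapping and not called (-0.06 ± 0.16). Axon guidance ligands and receptors, which steer growing neurites and also act between epithelial cells, were lower in 26 of 52 and higher in 3 (median -0.66), and lower in 14 without untreated replicate 3. SEMA3F (ENSG00000001617, chromosome 3, 50192478 to 50226508) fell from 273 and 225 to 45.4, 54.6 and 35 (-2.48 ± 0.28). SEMA6B fell from 1455 and 1133 to 392, 373 and 230.0 (-1.98 ± 0.22). NRP1, a receptor of secreted semaphorins, rose from 784 and 931 to 2001, 1527 and 1506 (0.95 ± 0.17).

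Laminins, fibulins and other matrix proteins were lower in 21 of 42 tested and higher in 3 (median -0.57). HSPG2 (ENSG00000142798, chromosome 1, 22148737 to 22263803), the basement membrane proteoglycan perlecan, fell from 11019.7 and 10801 to 2420.2, 4180.3 and 4165 normalised counts (-1.62 ± 0.20, adjusted p = 2.74e-14). LAMA5 (ENSG00000130702, chromosome 20, 60883011 to 60942368), a laminin chain, fell from 2004 and 3071 to 834, 721 and 739 (-1.75 ± 0.18). ITGB4 (ENSG00000132470, chromosome 17, 73717408 to 73753899), the integrin chain that grips laminin, fell from 2330.0 and 2737 to 680.2, 636 and 613 (-1.99 ± 0.14). In each of these genes every GSK3i library was below both untreated ones. Collagens were lower in 13 of 20 tested, but only in 5 without untreated replicate 3 and 9 without replicate 2. Only 1 collagen passed the test against 0.5. COL6A1, an abundant one, had 4540.5 and 5363 without and 3159.8, 2535 and 2307 with GSK3i (-0.91 ± 0.16). COL1A1, a low one, had 81.3 and 103 without and 38.4, 34.1 and 39.5 with GSK3i (-1.32 ± 0.35) and was not called without untreated replicate 3 (-1.14). Protocadherins, adhesion molecules of clustered genes that share similar sequence, gave 13 of 43 lower with DESeq2, 22 with edgeR and 4 without untreated replicate 3.

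The following signalling lists were lower more often than higher, with members going both ways in some. TGF-β and BMP genes were lower in 11 of 29 (37.9%, against 14.2% of all genes) and higher in 3 (10.3%, against 11.8%). ID1 (ENSG00000125968, chromosome 20, 30193086 to 30194318), a direct target of BMP signalling, fell from 5131 and 3430.1 to 1335, 1250.4 and 1213 normalised counts (-1.77 ± 0.17, adjusted p = 6.75e-23). PMEPA1 (ENSG00000124225, chromosome 20, 56223448 to 56286592), a feedback inhibitor of TGF-β signalling, rose from 641 and 992 to 3564, 2315 and 2783 (1.81 ± 0.20). Targets of YAP and TEAD were lower in 11 of 25 (44%) and higher in 3 (12%). CCN1, a secreted matrix-associated protein, had 11007 and 16910.5 without and 5743, 3217 and 4766 with GSK3i (-1.63 ± 0.22). AP-1 and immediate-early genes, which respond within minutes to serum or handling, were lower in 12 of 26 (46.2%) and higher in 0. In this list the untreated libraries stood apart from each other: its summed level was 51929 in one and 82378 in the other, against 41583 to 51475 with GSK3i. FOS had 497 and 2671 normalised counts in untreated replicates 2 and 3 and 106, 104 and 185 with GSK3i (-3.61 ± 0.88). EGR1 had 1318 and 4555 without and 684, 1046 and 1330.5 with GSK3i, with no call (-1.54 ± 0.68), and was called lower without untreated replicate 2 (-2.17) and by edgeR (-1.55). In both, untreated replicate 3 was the highest library by far, and its part in the list's count was not tested beyond leaving it out. Without untreated replicate 3 the list had 9 members lower and without replicate 2 16. KLF2, a member of the list with steady values, fell from 303 and 319 to 85, 87.6 and 75.5 (-1.93 ± 0.23).

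Among the smaller groups, cholesterol synthesis and SREBP2 target genes were lower in 9 of 26 and higher in 0. TM7SF2, a sterol reductase, fell from 852 and 757 to 197, 163 and 141 normalised counts (-2.28 ± 0.19, adjusted p = 2.75e-30). MVD, an enzyme of the mevalonate pathway, fell from 2893 and 3083 to 1574, 1696 and 1237 (-1.01 ± 0.16). Histone deacetylases, sirtuins and demethylases were lower in 13 of 37 and higher in 3, with 8 lower without untreated replicate 3 and 0 higher without replicate 2. HDAC5 (ENSG00000108840, chromosome 17, 42154114 to 42201070), a deacetylase whose location is set by kinases, fell from 1442 and 1548 to 297, 323 and 174 (-2.51 ± 0.22). Of 21 histone genes tested, 8 were lower and 0 higher, but most histone transcripts lack a poly(A) tail and the libraries were poly(A)-enriched. H1-10, a linker histone whose transcript is made outside S phase too, fell from 2159 and 2336 to 807, 795 and 524 (-1.68 ± 0.19). Genes of the circadian clock were called in both directions, 5 higher and 4 lower of 20 (25% and 20%, against 11.8% and 14.2% of all genes). Glycogen metabolism, the pathway from which GSK3 takes its name, had 1 of 23 genes higher and 2 lower, below the background in both directions.

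BRCA2-deficient cells were given the same inhibitor, in libraries that the comparison above does not use. Of 16863 genes tested there, 4289 (25.4%) were called, 1955 higher (11.6%) and 2334 lower (13.8%). Of 1976 genes called higher in BRCA2-proficient cells and tested in both, 1360 were also called higher in BRCA2-deficient cells (68.8% of the first list and 70.2% of the other, against 11.8% of all genes tested in both) and 0 were called lower. Of 2362 called lower, 1685 were called lower again (71.3% and 74.4%, against 13.8%) and 0 higher. The median change of the risers was 0.73 before and 0.67 here, and that of the fallers -1.02 and -0.90. Ribosome biogenesis genes were called higher in 61 of 79 (median 0.76), and insulin and FOXO target genes lower in 17 of 33. NOP2 had 3277, 3051 and 3194 normalised counts in the 3 untreated BRCA2-deficient libraries and 8845, 7907 and 7482 with GSK3i (1.35 ± 0.14). YPEL2 had 232, 323 and 297 without and 28.6, 18.6 and 18.8 with GSK3i (-3.71 ± 0.30).

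The difference between the backgrounds was tested as an interaction of GSK3i with BRCA2 status over the 11 libraries with control siRNA. It was called in 6 of 17381 genes (0.0345%) by DESeq2 and in 0 by edgeR, with 558 genes at an unadjusted p below 0.05. A difference was therefore shown for few genes, which does not show that the others responded alike. PPL (ENSG00000118898, chromosome 16, 4932508 to 5010742), a plakin that ties filaments to cell junctions, fell from 727 and 776 to 72.2, 71.7 and 65.4 normalised counts in BRCA2-proficient cells (-3.44 ± 0.20) and from 1247, 1334 and 1072 to 322, 419 and 457 in BRCA2-deficient cells (-1.61 ± 0.19), an interaction of 1.82 ± 0.26 (adjusted p = 5.84e-08). FOXM1, a transcription factor of mitotic genes, had 7875 and 7757 without and 9042, 8631 and 8956 with GSK3i in BRCA2-proficient cells. The BRCA2-deficient libraries had 3770.1, 3728 and 4462 without and 7502, 7253 and 6975 with GSK3i (interaction 0.68 ± 0.15, adjusted p = 0.00938). WDR62, a protein of the spindle pole, and TROAP, a protein of the spindle and of cell adhesion, had interactions of 0.77 ± 0.16 and 0.78 ± 0.13 (adjusted p = 0.00579 and 3.11e-05). In FOXM1, WDR62 and TROAP the untreated BRCA2-deficient libraries were all below the untreated BRCA2-proficient ones, TROAP at 959, 915 and 1005 against 1913 and 1914. Across the list of mitotic genes, 21 of 71 were called higher in BRCA2-deficient cells (median 0.37) against 2 of 71 in BRCA2-proficient cells (median -0.12), and the interaction was called in 3, which are these 3 genes. DNA replication genes gave 32 against 12 of 53, with the interaction called in 0.

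The siβ-catenin libraries ask which of these changes need β-catenin. In BRCA2-proficient cells this could not be read, because of the libraries that went against their labels. In BRCA2-proficient cells with siβ-catenin, 9 of 17010 genes (0.0529%) were called by DESeq2 and 0 by edgeR, with 263 genes at an unadjusted p below 0.05. Without both libraries labelled replicate 2, 1100 genes were called, from 2 libraries against 1. The interaction of GSK3i with siβ-catenin was called in 1305 of 17093 genes (7.63%), and in 592 without those libraries. In BRCA2-deficient cells no library went against its label, and the same comparison there was added after the data had been seen. With siβ-catenin, 3534 of 17610 genes (20.1%) were called with GSK3i, 1507 higher (8.56%) and 2027 lower (11.5%). CTNNB1 was at 2217, 1874 and 1139.9 normalised counts in the siβ-catenin libraries and at 1821, 1646 and 977 with GSK3i as well, against 6317, 8669 and 7839.5 with control siRNA, so part of the transcript remained.

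**Figure D4:**
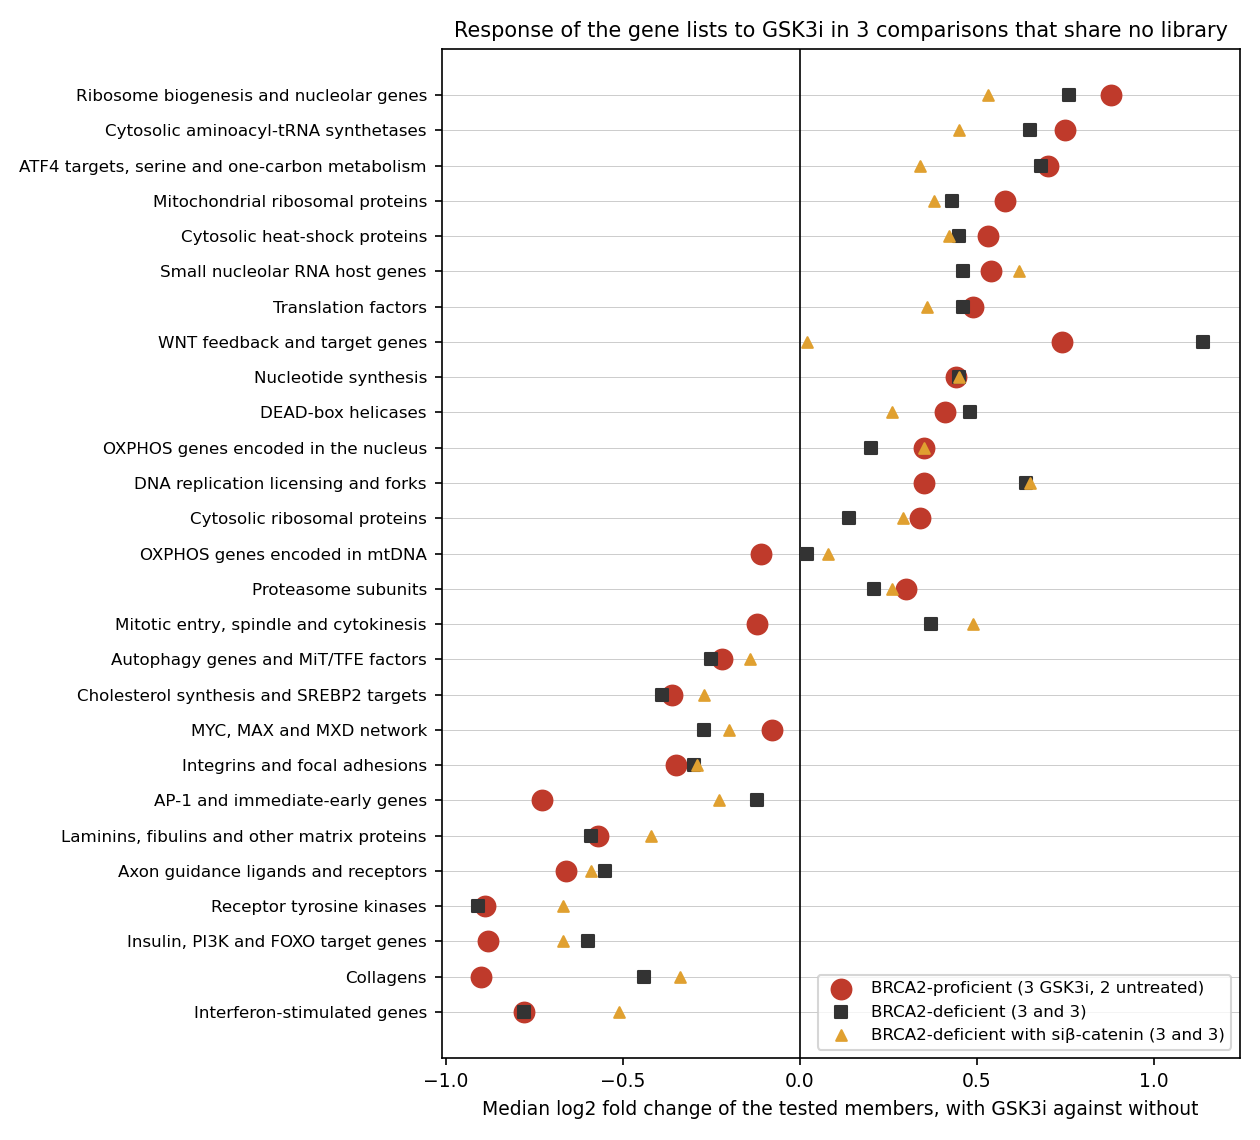
Median log2 fold change with GSK3i (x axis) of the tested members of 27 gene lists (rows) in BRCA2-proficient cells (circles), BRCA2-deficient cells (squares) and BRCA2-deficient cells with siβ-catenin (triangles), 3 comparisons without a library in common. The WNT target list goes from 0.74 and 1.14 to 0.02 with siβ-catenin, ribosome biogenesis from 0.88 and 0.76 to 0.53, and the FOXO list from -0.88 and -0.60 to -0.67.

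Of 1972 genes called higher in BRCA2-proficient cells and tested there, 887 were called higher (45%, which is 60.2% of that list, against 8.92% of all genes tested in both) and 7 lower. Of 2376 called lower, 1411 were called lower (59.4% and 73%, against 11.7%) and 3 higher. Several WNT targets responded less with siβ-catenin. AXIN2 had 95, 96.9 and 80.8 normalised counts with siβ-catenin and 227, 192 and 118 with GSK3i added (0.98 ± 0.27), and its interaction was -3.65 ± 0.34 (adjusted p = 2.51e-22). Of the WNT targets, 3 were called higher and 3 lower of 14, and the interaction was called in 5 of 15. In all, DESeq2 called the interaction in 88 of 18117 genes (0.486%) and left 3516 of the 18117 without an adjusted p. With edgeR the interaction was called in 11 genes. Ribosome biogenesis genes were called higher in 45 of 79 and lower in 0, with a median of 0.53 against 0.76 with control siRNA, and the interaction was called in 2 of them. NOP2 went from 3148, 2676 and 3362 to 6549, 6179.8 and 5285 (0.98 ± 0.16), with an interaction of -0.38 ± 0.19 that was not called (adjusted p = 0.767).

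The falling groups were also found with siβ-catenin. Insulin and FOXO target genes were lower in 20 of 33, receptor tyrosine kinases in 10 of 22, axon guidance genes in 25 of 54, and interferon-stimulated genes in 13 of 30. YPEL2 had 316, 342 and 322 normalised counts with siβ-catenin and 39, 44.3 and 31.6 with GSK3i added (-3.10 ± 0.23). PDCD4 had 1576, 1771 and 1291 without and 143, 156 and 142 with GSK3i (-3.39 ± 0.18). ULK1 had 2461, 2124 and 2376 without and 612, 662 and 643 with GSK3i (-1.86 ± 0.14). None of these 3 interactions was called (0.60, 0.50 and -0.01), which does not show that the responses were equal. By the DESeq2 interaction, some members of the insulin list did differ. IRS1 had 916, 868 and 688 with siβ-catenin and 697, 942 and 793 with GSK3i added, an interaction of -1.56 ± 0.33 (adjusted p = 0.00123), and TRIB2 one of -1.35 ± 0.33 (0.012). SLC7A5 also differed (-1.17 ± 0.29, adjusted p = 0.0104), as did FBXO32, a muscle-wasting ubiquitin ligase and FOXO target that was 9.2-fold lower with GSK3i in BRCA2-proficient cells, with an interaction of 1.42 ± 0.33 (0.00573). Under siβ-catenin, CDKN1A had 1068, 1063 and 969 without and 1281, 969 and 962 with GSK3i (0.06 ± 0.17). With control siRNA it had 1457, 1068 and 1269.9 without and 981, 606 and 734 with GSK3i (-0.71 ± 0.23). Its interaction of 0.75 ± 0.28 did not pass (adjusted p = 0.375). Under siβ-catenin, MYC had 4614, 3706 and 4981 without and 2568, 2192 and 2488 with GSK3i (-0.87 ± 0.16, adjusted p = 2.58e-06), with an interaction of -0.62 ± 0.21 that was not called (0.225).

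Several of the genes named overlap a gene annotated on the other strand, and the strand setting of the counting is not given in the sources used here, so their values are uncertain. They are KRT7, KRT8, NOP16, DNAJB1, PDCD4, MXD3, CDKN1B, CDKN2B, CCND1, RBL2, SQSTM1, DDIT3, IFIT1, IFIT2, AXL, SEMA3F, LAMA5, ITGB4, HDAC5, H1-10, PPL, SMIM14, FOXM1, WDR62, GSK3A, GSK3B, CTNNB1 and VIM.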

How the data were processed

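RNA was sequenced from poly(A)-enriched, strand-specific libraries of H1299 cells. The authors used HISAT2 for alignment to GRCh37, took out duplicates with Picard, and summed the reads of unique position per Ensembl gene in featureCounts. The submitters' processing notes give HISAT2 2.0.4, SAMtools 1.4, Picard 1.9.2 and featureCounts 1.5.0, while the study's software list names other versions, so which versions made the table is not known. Neither the Ensembl release nor the strandedness used for counting is given in the sources used here. The values used are these deposited raw counts for 37908 genes, of which 36479 were given a symbol and 1429, with 0.743% of the counts, were not. Removing duplicates can lower the counts of the most abundant genes.

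Each library was grouped by its label. A gene was tested unless more than 3 libraries of the fit had fewer than 10 counts. The test was the DESeq2 (1.42.0, R 4.3.3) Wald test on the 5 libraries alone, with Benjamini-Hochberg adjustment over the genes to which DESeq2 gave an adjusted p. A gene was called at an adjusted p below 0.05 and a log2 fold change beyond 0.5. Interactions used genes with at least 10 counts in 3 libraries. No adjusted p was set where DESeq2 gave none, which was 1 of 16771 genes in the main fit. In the siβ-catenin interactions it was 2334 of 17093 genes (BRCA2-proficient) and 3516 of 18117 (BRCA2-deficient). Such genes could not be called but were counted as tested. Fits were tested on simulated counts. Untreated replicates 2 and 3 differed beyond counting noise (11.8 per gene, chi-square), as did the GSK3i pairs (14 to 31.2), so none was a copy.

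Alternatives were edgeR (4.0.16), TMM scaling, other filters, a test against 0.5, one model over all groups, a replicate block and leaving out each library. Genes named are checks, anchors, and the 5 leading genes of each interaction at a mean of at least 100 normalised counts. Also named are the 12 largest changes in each direction and the 3 largest of each list and direction. These largest changes were taken among called genes with a mean of at least 100 normalised counts and groups that did not overlap. FOS and other list anchors are named whether called or not. FOXO4, YPEL3, NOP2 and WDR43 promoters, the genes MXD3, MNT, CDKN2B and ZEB2, and the counts of CDK inhibitors, were picked after values were seen. The members and the lists were chosen with earlier results of these data known. Some results are not reported here.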

Additional observations from a re-analysis of the deposited data

Results flagged for a closer look

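The genes below are those named in the report or in this section whose response to GSK3i differed between 2 backgrounds by an interaction test (DESeq2, adjusted p below 0.05 and beyond 0.5 on the log2 scale). Between BRCA2-deficient and BRCA2-proficient cells, the interaction was 1.82 for PPL, 0.78 for TROAP, 0.77 for WDR62 and 0.68 for FOXM1. For PPL the decrease with GSK3i was smaller in BRCA2-deficient cells, and for the other 3 genes the change with GSK3i was more positive there. DOX and loss of BRCA2 cannot be told apart in these differences, and edgeR called none of the genes in this comparison.

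In BRCA2-deficient cells, the response was less positive with siβ-catenin than with control siRNA for AXIN2 (-3.65), LEF1 (-2.62), RNF128 (-1.46), ITPKA (-1.29), DCLK1 (-1.37), IRS1 (-1.56), TRIB2 (-1.35) and SLC7A5 (-1.17), and less negative for FBXO32 (1.42). With edgeR 11 genes were called in this interaction against 88, and 0% of the 11 were positive, so FBXO32 was not among them. Which of the other genes edgeR called is not listed here. The corresponding interaction in BRCA2-proficient cells is not listed gene by gene, because the library labelled siβ-catenin replicate 2 and the library labelled GSK3i + siβ-catenin replicate 2 went against their labels.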

How the results depend on the processing

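In BRCA2-proficient cells 4904 genes were called with edgeR, 4347 with TMM scaling, 4286 without a low-count filter, 3707 at a mean of at least 50 counts and 4083 in one model over all groups, against 4372. The test against a change of 0.5 called 1041, 376 higher and 665 lower. Leaving out 1 library gave 2825 to 4266 called, 1515 to 2133 higher and 1310 to 2133 lower, lowest without untreated replicate 3, and higher genes were 53.4% and 53.6% of the calls without untreated replicate 2 or 3, against 45.4%. The cause was not tested, beyond the loss of 1 of 2 untreated libraries. The replicate block called 3260 genes, 1617 higher and 1643 lower. Untreated and GSK3i libraries share only numbers 2 and 3, with correlations of their deviations of 0.115 and 0.133. Crossed numbers gave -0.115 and -0.133. With 2 untreated libraries the deviations mirror each other, so these values cannot decide whether a shared number marks a pairing. The main fit used no pairing.

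With siβ-catenin in BRCA2-proficient cells the 9 calls became 0 with edgeR, 3 with the replicate block, 3 to 28 without 1 library and 1100 without both libraries labelled replicate 2. The 1305 interaction calls there became 4 with edgeR, 102 to 2251 without 1 library and 592 without both. The 6 calls of the interaction with BRCA2 status became 0 with edgeR, 94 with the replicate block and 3 to 14 without 1 library. In BRCA2-deficient cells the 3534 calls with siβ-catenin ran from 2217 to 3575 without 1 library, and the 88 interaction calls became 11 with edgeR, 335 with the replicate block and 47 to 110 without 1 library. The cause of these shifts was not tested. Of the named genes' fold changes, 79 of 99 kept their call in every alternative, and no direction reversed. With 2 untreated libraries, small changes and genes near 10 counts were the least certain.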

Other observations

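Some genes and groups not described above also moved. PER3, a repressor of the circadian clock, had 505 and 476 normalised counts in the untreated libraries and 693, 924 and 1044 with GSK3i (0.84 ± 0.19), and was not called in one model over all groups (adjusted p = 0.126). DBP, a clock output factor that overlaps a gene on the other strand, had 254 and 238 and 114, 108 and 85.7 (-1.28 ± 0.24). In neither gene did the groups overlap. Nucleoporins were called higher in 7 of 21 (33.3%, against 11.8% of all genes) and lower in 1 (4.76%, against 14.2%).

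Beside the WNT targets, RNF128, a ubiquitin ligase, rose from 193 and 179 to 999, 952 and 801 (2.29 ± 0.18), ITPKA, a kinase of inositol phosphates, from 221 and 241 to 1294, 1110.5 and 857 (2.22 ± 0.20), and NTSR1, a receptor of neurotensin, from 186 and 143 to 791, 1054 and 475 (2.22 ± 0.27). None of these overlapped between the groups.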
